A study of Mus musculus with 16 samples.

Results

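The cells described here are CD8+ T cells of accepted mouse kidney allografts whose mRNA held both integrin chains of resident T cells, Itgae (CD103, integrin alpha E) and Itga1 (CD49a, integrin alpha 1). They were selected on the counts themselves. A cell was called double-positive (DP) with at least 1 unique molecular identifier (UMI, the tag of 1 captured mRNA molecule) of Itgae, at least 1 UMI of Itga1, and at least 1 UMI of Cd8a or Cd8b1. By this rule 5062 of the 35450 cells with a CD8 UMI were DP in accepted grafts at 1 and 3 weeks after transplantation. These grafts contributed 38673 of the 72639 cells in all matrices of CD8+ T cells. The comparison cells were the 18249 double-negative (DN) cells, which held a CD8 UMI and no UMI of either integrin. A cell without a UMI can still carry the mRNA, so DN is a class of counts and not a proven absence.

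Accepted grafts were DBA/2J kidneys in wild-type male C57BL/6J (B6) recipients, which accept them without treatment. Rejecting grafts were B6 kidneys in DBA/2J recipients at 1 week, per the study's methods, although the labels name the strain C57BL/6J throughout. No transgene, deletion, or drug was part of any group used here, and the ages of the mice are not given in the labels. Viable CD45+ cells were sorted, profiled by droplet scRNA-seq, and called CD8+ T cells by hand from clusters. Each cell barcode carries a library tag, and each tag was taken as 1 mouse. Accepted grafts had 3 libraries at 1 week (7K1 to 7K3) and 5 at 3 weeks (TK1 to TK5), and rejecting grafts had 2 (R7K2 and R7K3). Recipient spleens at 1, 3, and 24 weeks, grafts at 24 weeks, spleens of rejecting recipients, and naive spleens were the other groups.

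Tissue-resident memory T cells stay in an organ and do not recirculate. CD103 pairs with integrin beta 7 and binds E-cadherin on epithelium, and CD49a pairs with integrin beta 1 and binds collagen, including collagen IV of basement membranes. Transforming growth factor beta (TGF-β) is known to induce CD103, the factors Runx3, Blimp-1 (Prdm1), and Hobit (Zfp683) to sustain residency, and the loss of S1pr1 and Klf2 to keep cells from leaving. CXCR6, the receptor for CXCL16, and CD69 are other usual markers of these cells. In the mouse genome (GRCm38), Itgae lies on chromosome 11 from 73090583 to 73147446 on the plus strand. Itga1 is found on chromosome 13 from 114953096 to 115101964 on the minus strand, and Cxcr6 on chromosome 9 from 123806475 to 123811760 on the plus strand.

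The whole of the data had 3 features that touch these results. DP cells were deeper than DN cells, with a median of 2384.5 against 2054 UMIs at 3 weeks and 4082 against 2590 UMIs at 1 week. Median depth also differed between libraries, and TK1 was the deepest of its group with 3160.5 UMIs in DP cells against 2096 to 2363 in the other 4 libraries. In addition, the 24-week labels went against kidney RNA. The summed level of 5 tubule genes (Kap, Miox, Slc34a1, Fxyd2, and Gpx3, chosen after their values were seen) was 0 to 0.361 CPM (UMIs scaled to the total of the library's class) in the libraries labelled graft at 24 weeks and 2.83 to 4.45 CPM in those labelled recipient spleen at 24 weeks. It was 5.73 to 9.55 CPM in grafts at 3 weeks, 0.921 to 4.41 CPM in accepted grafts at 1 week, and 0.973 to 2.10 CPM in rejecting grafts, and no more than 1.51 CPM in any spleen of another group, so that grafts R7K3 and 7K2 lay within the range of spleens. The libraries of 24 weeks are therefore called by their labels, as "labelled spleen" and "labelled graft". Of the barcodes, 26 at 1 week and 58 at 3 weeks occurred in 2 libraries, which touched 3 and 28 DP cells.

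DP cells made up a far larger share of CD8 cells at 3 weeks than at 1 week. At 3 weeks 4724 of 21487 cells with a CD8 UMI were DP (22.0%, Clopper-Pearson 95% interval 21.4 to 22.5), and at 1 week 338 of 13963 (2.42%, 2.17 to 2.69). The intervals cover counting error only. By library, the share was 29.3%, 20.2%, 21.5%, 20.5%, and 20.3% in TK1 to TK5, a mean of 22.3 ± 3.92% (SD, n = 5). It was 2.75%, 5.69%, and 0.955% in 7K1 to 7K3, a mean of 3.13 ± 2.39% (n = 3) and of 1.85% without 7K2. The 2 sets did not overlap, and TK1 stood above the other 4 libraries of its time. These shares chose the cells and were not tested.

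Depth moves such a share, so each cell was also thinned to 1000 randomly drawn UMIs. The rule was applied again to the thinned counts, also for the gene tests in thinned cells below. This left 1474 DP cells at 3 weeks, 45 at 1 week, 170 in the labelled spleen, and 11 in rejecting grafts. The thinned share was 7.51 ± 0.695% at 3 weeks, from 6.68% to 8.47%, and 0.497 ± 0.306% at 1 week, from 0.154% to 0.744%. The order of the libraries stayed the same at 1 week but not at 3 weeks, where TK1, with 7.22%, was now below TK2, TK3, and TK5. In thinned cells Itgae, with or without Itga1, was seen in 19.4% of CD8 cells at 3 weeks and 4.81% at 1 week. Itga1, with or without Itgae, was seen in 31.8% and 5.72%. With at least 2 UMIs of each integrin the mean share over libraries was 6.04% at 3 weeks (1253 cells) and 0.429% at 1 week (40 cells).

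In the labelled spleen of 24 weeks 838 of 4293 cells were DP, a library mean of 19.2 ± 5.04% (n = 3) and 4.78 ± 0.871% after thinning. In rejecting grafts at 1 week 48 of 1687 cells were DP (2.85%), 4.13% in R7K2 and 1.21% in R7K3, and 1.31% and 0.187% after thinning. As deposited, both libraries lay within the range of accepted grafts at 1 week, and after thinning R7K2 lay above it. The single integrins differed more. In thinned cells Itga1 was seen in 27.5 ± 10.3% of CD8 cells of rejecting grafts and 5.72 ± 1.74% of those of accepted grafts at 1 week. Itgae was seen in 2.96 ± 1.55% and 4.81 ± 1.62%. The DP class was rare in the other groups. Recipient spleens held 2 of 5262 cells at 1 week and 2 of 2757 at 3 weeks, and naive spleens 1 of 4500. In the labelled graft of 24 weeks 0 of 1910 cells were DP, which allows a share of up to 0.157%, and in spleens of rejecting recipients 0 of 726, which allows up to 0.413%. Cells of other types give the background of the rule. Among 6469 cells with macrophage genes in rejecting kidneys (median 2400 UMIs), Itgae was seen in 0.0928%, Itga1 in 2.60%, and both in 0 cells after thinning. Among 28744 thinned B cells of naive spleen (median 2681 UMIs) the shares were 0.0209% and 0.0139%, with no cell holding both.

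**Figure D1:**
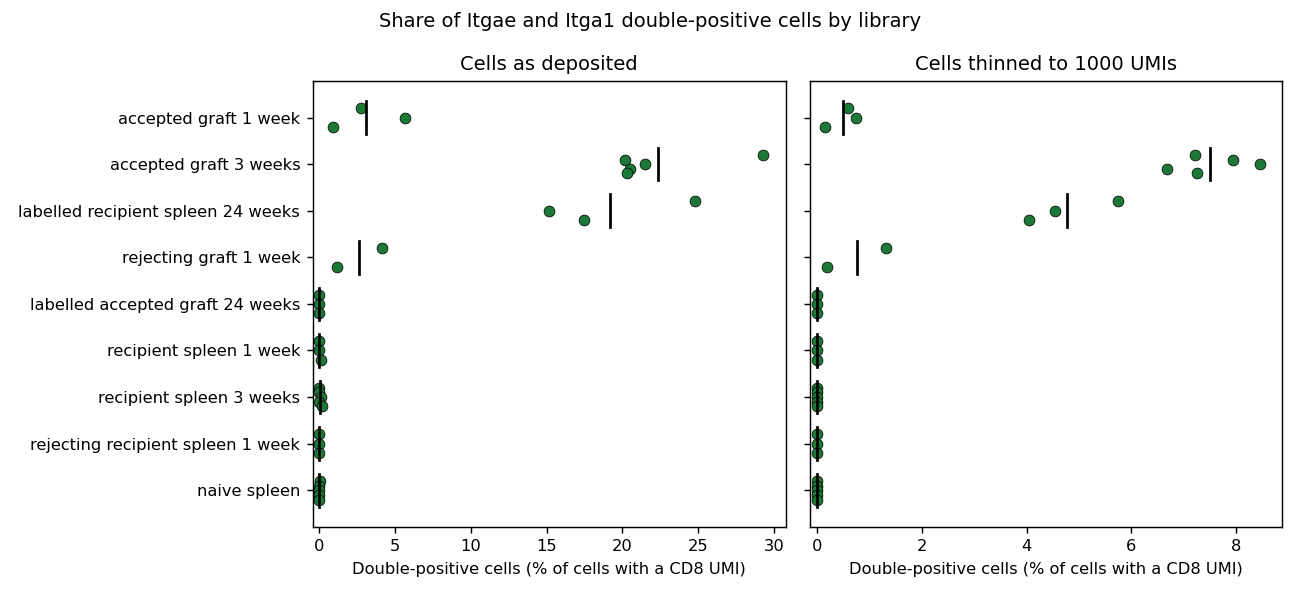
Share of Itgae and Itga1 double-positive cells among cells with a Cd8a or Cd8b1 UMI, in percent, 1 point per library and a bar at the mean of each group, for cells as deposited (left) and thinned to 1000 UMIs (right). Accepted grafts at 3 weeks (20.2% to 29.3% as deposited) and the labelled spleen of 24 weeks (15.2% to 24.8%) lie apart from all other groups in both panels.

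The rule sits close to the limit of detection. At 3 weeks 1273 DP cells (26.9%) and at 1 week 165 (48.8%) were just inside it, with exactly 1 UMI of each integrin. The median was 1 UMI of Itgae and 2 of Itga1 at 3 weeks, and the highest counts in a cell were 9 and 13. Just outside it were 2676 cells with Itgae only and 6976 with Itga1 only at 3 weeks, and 1033 and 1454 at 1 week. Both Cd8a and Cd8b1 were seen in 85.4% of DP cells at 3 weeks and 85.8% at 1 week. Cells without a CD8 UMI were left out, and 77 of 719 such cells at 3 weeks and 12 of 2504 at 1 week held both integrins.

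Itgae and Itga1 were seen in the same cell more often than the product of their shares. The odds ratio of finding one in cells with the other was 2.07, 1.62, 1.76, 1.77, and 1.77 in TK1 to TK5 and 2.08, 2.67, and 1.83 in 7K1 to 7K3. All 8 libraries stayed above 1 within strata of cell depth (1.54 to 2.42) and after thinning (1.30 to 2.17). This is a description of cells that share a library, and no test was made.

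At 3 weeks DP cells carried more granzyme A and B mRNA and more of the NK-type adaptors Tyrobp and Fcer1g than DN cells of the same mouse, and less of the exhaustion-associated factors Eomes, Tox2, Maf, and Tox. UMIs were summed per library and class and fitted by the quasi-likelihood test of edgeR with the library as a block, and p-values were adjusted over all 10165 genes tested. Of these, 494 genes were higher in DP cells (4.86%) and 504 were lower (4.96%) at an adjusted p under 0.05. The median log2 fold change of all genes was 0.01. Fold changes below are log2 values, DP minus DN, with their SE. The SE and p-value of a gene draw on a spread that edgeR shares over genes. They can understate how far its DP and DN difference varied between mice, as for Gzma and Eomes. The values by library show that spread.

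Gzma and Gzmb had the highest fold changes among genes of at least 50 CPM in either class that differed the same way in all 5 libraries. The level of Gzma, a granzyme with tryptase activity, was 284, 351, 1077, 567, and 589 CPM in DP cells of TK1 to TK5 and 22.97, 67.6, 100.4, 57.1, and 107 CPM in DN cells. DP cells were higher in every library and the 2 ranges did not overlap, with a fold change of 2.99 ± 0.07 (adjusted p = 1.38e-50). Gzma was seen in few cells, in 8.09% of DP and 3.78% of DN cells as deposited and in 6.14% and 2.36% after thinning. Such shares of thinned DP and DN cells with a gene, here and below, keep the classes of the full counts. Cells without a UMI can still carry the mRNA. Its share was 0.711% in the thinned macrophage cells above and 0.543% in the B cells. Gzmb, the granzyme that cleaves after aspartate, was at 1019, 1361, 1657, 1366, and 1584 CPM in DP and 346, 599, 535, 479, and 479 CPM in DN cells. Again no library overlapped, and the fold change was 1.52 ± 0.04 (adjusted p = 2.15e-50). Gzmb was seen in 52.4 ± 5.70% of thinned DP cells and 24.4 ± 3.05% of thinned DN cells (67.5% and 35.1% as deposited), against 0.804% of macrophage cells and 0.0557% of B cells.

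The cytotoxic genes did not move as 1 group. Of 16 tested, 5 were higher (Gzma, Gzmb, Gzmc, Ctsw, and Tnfsf10), 5 were lower, and 6 did not pass, with a median of 0.07. Gzmc was at 17.97 ± 6.88 CPM in DP and 7.03 ± 4.36 CPM in DN cells (1.34 ± 0.19, adjusted p = 2.15e-08). The other direction was taken by Gzmk, a granzyme of memory cells, at 32.4, 17.9, 23.7, 29.1, and 34.5 CPM in DP and 126, 44.7, 29.7, 42.0001, and 48.8 CPM in DN cells (-1.10 ± 0.12, adjusted p = 1.08e-11). Its DN level in TK1 was far above the others, and without TK1 the fold change was -0.63 and still passed the test. Prf1, the pore-forming perforin, was at 113, 109, 110.1, 111, and 129 CPM in DP and 179, 164, 134, 145, and 158 CPM in DN cells, lower in all 5 libraries with no overlap (-0.45 ± 0.06, adjusted p = 3.97e-09). Granzyme A and B and perforin mRNA differed in opposite directions between the same cells.

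Cd7, an immunoglobulin-family receptor of T and NK cells, was at 383, 355, 539, 580.0, and 489 CPM in DP and 176, 148, 199.8, 235, and 194 CPM in DN cells (1.30 ± 0.04, adjusted p = 1.32e-41). It was higher in DP cells of every library, and was seen in 32.1% of thinned DP and 14.6% of thinned DN cells (53.1% and 25.6% as deposited), and in 0.170% of macrophage cells. The adaptor Tyrobp (DAP12), which carries signals of activating NK receptors, was at 62.1 ± 23.6 against 30.2 ± 9.66 CPM (1.04 ± 0.09, adjusted p = 2.87e-15). Fcer1g, an adaptor with a like role, was at 312, 539, 718, 817, and 616 CPM in DP and 179.5, 376, 482, 425, and 359 CPM in DN cells. It was higher in all 5 libraries, although the ranges overlapped (0.72 ± 0.04, adjusted p = 3.24e-26). The NK receptors themselves went the other way in part. Of 16 NK receptor and adaptor genes, 5 were higher and 5 lower, the latter being Klrk1 (NKG2D), Klrd1, Klrc1, Klre1, and Klri2. Klrk1 was at 50.03 ± 9.02 CPM in DP and 82.6 ± 15.1 CPM in DN cells (-0.72 ± 0.07, adjusted p = 5.57e-13), and Klre1 at 19.95 ± 5.77 and 45.8 ± 12.9 CPM (-1.20 ± 0.11). The counts of near-identical Klra genes can be shared between them, and Klra1 (2.18, 2.97 ± 2.50 against 0.647 ± 0.954 CPM) is uncertain for that reason.

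The other genes at the high end, among those of at least 50 CPM that differed the same way in all 5 libraries, were Tmem273 (1.51), AA467197 (1.04), Slamf7 (0.84), Abi3 (0.80), Pag1 (0.80), and Cited4 (0.80). Slamf7 is a receptor of the SLAM family and Pag1 an adaptor that brings the inhibitory kinase Csk to the membrane. Tmem273 was at 77.05 ± 12.3 CPM in DP and 26.9 ± 5.59 CPM in DN cells. The low end was led by Il18r1, a chain of the interleukin-18 receptor, at 46.6, 34.3, 46.7, 37.1, and 35.3 CPM in DP and 86.1, 93.7, 92.9, 78.5, and 89.95 CPM in DN cells, with no overlap (-1.12 ± 0.08, adjusted p = 3.80e-21). Its partner Il18rap had a fold change of -1.28 at 10.1 ± 2.78 and 24.7 ± 2.07 CPM. After Il18r1 and Gzmk came Rgs16 (-1.09), Gm156 (-0.93), Nrp1 (-0.79), Dusp4 (-0.74), Klrk1, Ly6c2 (-0.72), Sh2d1a (-0.71), and Bend4 (-0.70). Rgs16 damps G-protein signals, Nrp1 is a semaphorin receptor, Dusp4 a phosphatase of MAP kinases, and Sh2d1a the adaptor of SLAM receptors.

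**Figure D2:**
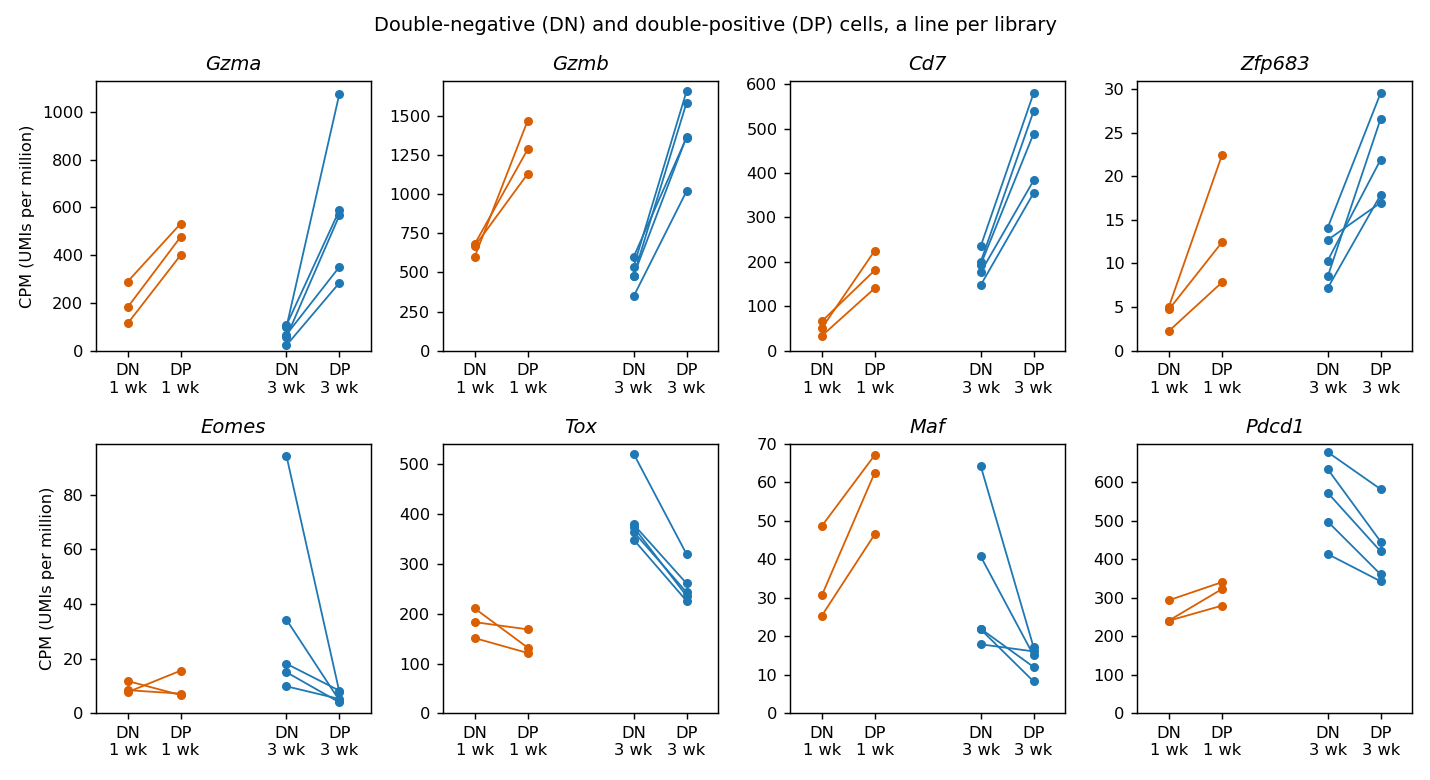
Level of 8 genes in double-negative (DN) and double-positive (DP) cells in CPM, each library joined by a line, at 1 week (orange, 3 libraries) and 3 weeks (blue, 5 libraries). Gzma, Gzmb, and Cd7 are higher in DP cells of all 8 libraries, while Maf is higher in DP cells at 1 week and lower at 3 weeks. Eomes is lower in DP cells of all 5 libraries at 3 weeks, with 1 DN library at 94.2 CPM.

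Residency genes split at 3 weeks. Of 30 genes associated with tissue residency, 13 were higher, 10 lower, and 7 did not pass, and the median of 0.08 was close to that of all genes. The largest were Zfp683 (Hobit), Hpgds (a prostaglandin D synthase), Qpct (glutaminyl cyclase), and Cdh1 (E-cadherin, the ligand of CD103). Zfp683 was at 21.9, 17.9, 16.96, 29.5, and 26.6 CPM in DP and 10.3, 7.18, 12.7, 14.1, and 8.51 CPM in DN cells (1.09 ± 0.15, adjusted p = 3.14e-08), and Hpgds at 22.9 ± 2.23 and 10.9 ± 1.72 CPM (1.07). Both were higher in all 5 libraries, with no overlap. Cdh1 was at 60.5 ± 3.79 and 36.5 ± 3.02 CPM (0.73), and Qpct had a fold change of 0.89. The 10 that were lower were Prdm1 (Blimp-1), Bhlhe40, Rbpj, Rgs2, Ctla4, Icos, Fosl2, and the NR4A receptors Nr4a1, Nr4a2, and Nr4a3, which are also induced by T cell receptor signals. Nr4a2 was at 384, 379.9, 379, 421, and 475 CPM in DP and 565, 601, 603, 633, and 735 CPM in DN cells (-0.62 ± 0.03, adjusted p = 2.26e-26), lower in DP cells without overlap.

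Cxcr6, the marker that the rule did not use, differed little. It was at 749, 673, 699, 693, and 662 CPM in DP and 709, 619, 664, 594, and 599.9 CPM in DN cells. The levels overlapped, and each library was slightly higher in DP cells (0.13 ± 0.03, adjusted p = 0.00296, and 0.76 without the library as a block). In thinned cells it was seen in 47.7 ± 2.91% of DP and 43.2 ± 1.98% of DN cells (75.1% and 64.7% as deposited), and in 0.309% of the macrophage cells. After thinning, Cxcr6 mRNA was thus seen in both classes at about the same share. The label of resident cells rests here on the 2 integrins and not on this marker. Cd69, an early activation and retention marker, differed by as little (308 ± 41.5 and 280.2 ± 34.2 CPM, 0.14), and Runx3 did not pass the test (656 ± 74.3 and 642 ± 66.99 CPM, 0.03 ± 0.03, adjusted p = 0.647).

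Genes that resident cells are known to lose were lower. Of 17 tested, 10 were lower and none higher, with a median of -0.62, and their summed level was 433 to 505 CPM in DP and 575 to 738 CPM in DN cells. Cx3cr1, the fractalkine receptor of circulating effector cells, was at 8.84 ± 1.26 and 17.5 ± 4.29 CPM (-0.97 ± 0.16, adjusted p = 2.44e-06). Klf2, the factor that drives exit receptors, was at 69.3, 60.7, 50.5, 58.2, and 43.6 CPM in DP and 87.3, 72.8, 73.4, 74.4, and 76.6 CPM in DN cells (-0.45). Gpr183 (-0.88), a receptor for oxysterols, was lower too. S1pr1, the exit receptor, had a fold change of -0.62 ± 0.19 at 7.77 ± 2.96 and 11.7 ± 2.22 CPM (adjusted p = 0.0211), but it was higher in DP cells in TK2 and the call was lost without TK1 (adjusted p = 0.15). Tcf7, at 11.8 ± 2.46 and 14.002 ± 3.67 CPM, did not pass (-0.25 ± 0.17, adjusted p = 0.438).

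Of 19 exhaustion-associated regulators tested, 13 were lower in DP cells, none was higher, and 6 did not pass, with a median of -0.32. This list shares Eomes and Tcf7 with the genes that resident cells lose, so the counts of these lists are not separate. Eomes, a T-box factor of memory and exhausted cells, was at 7.76, 4.70, 5.28, 4.03, and 8.31 CPM in DP and 94.2, 34.3, 9.91, 15.1, and 18.2 CPM in DN cells. DP cells were lower in every library with no overlap (-2.56 ± 0.19, adjusted p = 2.30e-19). The DN level of TK1 was far above the others, and the fold change was -1.73 without it. Tox, a factor required for the exhausted state, was at 319.7, 243, 226, 236, and 261 CPM in DP and 521, 364, 349, 374, and 379 CPM in DN cells, also without overlap (-0.63 ± 0.04, adjusted p = 8.58e-23). Tox2 (-1.51), Maf (-1.31), and Ikzf2 (-0.52) were lower in all 5 libraries. Maf was at 13.7 ± 3.59 and 33.4 ± 19.4 CPM, and -0.99 without TK1.

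Inhibitory receptors were mixed, with 3 of 18 higher and 5 lower. Pdcd1 (PD-1) was at 342, 581, 419.9, 360.3, and 445 CPM in DP and 413, 677, 572, 497, and 633 CPM in DN cells. It was lower in DP cells of each library although the ranges overlapped (-0.38 ± 0.04, adjusted p = 2.77e-14). Havcr2 (TIM-3) was at 18.7 ± 6.26 and 37.6 ± 7.62 CPM (-0.98), and Lag3 (-0.39) and Ctla4 (-0.47) were lower too. The 3 higher ones were Cd244a (2B4), at 182, 181, 198, 191, and 195 CPM in DP and 106, 113, 129, 133, and 115 CPM in DN cells (0.67 ± 0.05), Cd160 (0.51), and Cd101 (0.48). In thinned cells, Pdcd1 together with Lag3, Havcr2, or Tigit was seen in 4.58 ± 1.03% of DP and 7.40 ± 1.11% of DN cells.

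Fgl2 and Il2rb (CD122), which mark CD8 cells that have been described as regulatory, differed in opposite directions. Fgl2, a secreted fibrinogen-like protein, was at 384, 455, 490.4, 446, and 510.5 CPM in DP and 258, 321, 313, 315, and 378 CPM in DN cells, higher without overlap (0.53 ± 0.04, adjusted p = 1.06e-20). Il2rb, the shared chain of the interleukin-2 and interleukin-15 receptors, was at 545, 578, 705, 593, and 666 CPM in DP and 624, 711, 781, 732, and 825 CPM in DN cells, lower in each library (-0.25 ± 0.03, adjusted p = 3.14e-09). Cells with both made up 14.8 ± 1.95% of thinned DP and 12.2 ± 2.03% of thinned DN cells, and 0.108% of macrophage cells. Fgl2, with or without Il2rb, was seen in 34.5% of macrophage cells, and the summed level of 15 myeloid genes was lower in DP than in DN cells of every library. Of 12 regulatory genes tested, Fgl2 was the 1 that was higher and 5 were lower. One of these, Il10, was at 1.39, 1.88, 1.13, 0.895, and 0.831 CPM in DP and 9.19, 4.57, 0.620, 1.28, and 0.568 CPM in DN cells, and its call was lost without TK1 (-0.50, adjusted p = 0.71). The lowest of these levels rest on 2 UMIs. Foxp3 was near 0 in both classes (1.27 ± 0.862 and 0.890 ± 0.793 CPM, 0.49 ± 0.54, adjusted p = 0.701).

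The partners of the 2 selected integrins differed in opposite directions at 3 weeks. Itgb7, the partner of CD103, was at 57.1, 44.2, 60.3, 51.9, and 57.3 CPM in DP and 39.4, 33.3, 30.7, 39.1, and 29.8 CPM in DN cells, higher with no overlap (0.66 ± 0.09, adjusted p = 1.24e-08). Itgb1, the partner of CD49a, was at 608, 529, 501, 554, and 516 CPM in DP and 671, 606, 606, 762, and 681 CPM in DN cells, lower in all 5 libraries (-0.29 ± 0.03, adjusted p = 5.10e-11). Itga4 (-0.29), which pairs with both, was lower as well, and 13 of the 17 integrin genes tested did not pass. In the TGF-β pathway 4 of 18 genes were higher and 4 lower. The receptors Tgfbr1 (0.44) and Tgfbr3 (0.80) and the feedback inhibitors Ldlrad4 (0.75) and Pmepa1 (0.33) were higher. Ldlrad4 was at 36.3, 38.1, 50.9, 34.9, and 43.6 CPM in DP and 22.2, 25.5, 30.7, 20.8, and 22.1 CPM in DN cells. The genes lower in this list were Tgfb1, Smad7, Tgif1, and Itgav.

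Among cytokines and chemokines 2 of 13 were higher and 5 lower. Ifng was at 202, 142, 144, 171, and 134 CPM in DP and 258, 211, 218, 241, and 223 CPM in DN cells, lower with no overlap (-0.54 ± 0.05, adjusted p = 4.91e-14). Xcl1, which attracts cross-presenting dendritic cells, was at 373 ± 55.6 and 275 ± 61.4 CPM, higher in each library (0.45 ± 0.05, adjusted p = 1.39e-12). Among cytokine receptors Il7r, the survival receptor of memory cells, was at 251 ± 85.8 and 182 ± 34.4 CPM (0.45 ± 0.05). Dividing cells were few. Of 26 proliferation genes 3 were lower and 23 did not pass, with Mki67 at 21.2 ± 4.25 and 20.7 ± 1.86 CPM (adjusted p = 0.92).

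With DN cells matched 1 to 1 to DP cells on UMIs in each library, 474 genes were higher and 476 lower at 3 weeks. The counts fell to 113 and 147 after thinning each cell to 1000 UMIs and to 114 and 127 without the library as a block. In thinned cells 5 of 30 residency genes were higher and 8 lower, 6 of 17 genes that resident cells lose and 8 of 19 exhaustion-associated regulators were lower, and 5 cytotoxic genes were higher and 1 of 14 lower. Without the block 6 residency genes were higher and 5 lower, 5 genes that resident cells lose and 9 exhaustion-associated regulators were lower, and 2 cytotoxic genes were higher and 2 lower. Of the TGF-β pathway 1 was higher and 0 lower, and of cytokines and chemokines 0 and 1.

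At 1 week the DP class was small, with 67 to 155 cells per library, and it was lower in 7 of 13 naive and memory genes and higher in 13 of 30 residency genes and 7 of 16 cytotoxic genes than DN cells. Of 10165 genes 441 were higher (4.34%) and 191 lower (1.88%). With TMM scaling the split was 252 higher and 377 lower, and all genes had a median fold change of 0.09 with plain totals, so directions are given for genes that kept them under TMM and DESeq2. The counts rested on library 7K2, which held 155 of the 338 cells. They were 105 and 66 without it and 270 and 90 without 7K1. After thinning, 9 genes were higher and 2 lower, and the list counts of 1 week given below fell with them. The thinned fit held 21, 16, and 8 DP cells in 7K1 to 7K3, and cells that lost their integrin UMIs counted as DN. Whether calls were lost through depth or through the small class was not tested.

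The low end at 1 week held Tcf7 and Ccr7, which are expressed in naive and central memory cells. Tcf7 was at 15.7, 20.7, and 46.9 CPM in DP cells of 7K1 to 7K3 and 129, 99.7, and 92.8 CPM in DN cells (-2.18 ± 0.20, adjusted p = 1.38e-14). Ccr7, the receptor for lymph node entry, was at 24.6, 7.24, and 7.82 CPM in DP and 90.1, 45.4, and 46.2 CPM in DN cells (-2.26 ± 0.25, adjusted p = 5.41e-11). Neither gene overlapped between the classes. Dapl1 had the lowest fold change of the named genes, -3.29 ± 0.27, at 11.2, 8.28, and 3.91 CPM in DP and 117, 75.1, and 49.97 CPM in DN cells. Of 13 naive and memory genes 7 were lower and 1, Bcl2, was higher, with a median of -1.09. Against depth-matched DN cells 4 of 12 were lower, and in thinned cells 0 of 11. The values of Dapl1 and Ccr7 in DP cells of 7K3 rest on 1 and 2 UMIs. Nrgn (-1.78), Slamf6 (-1.29), 2310001H17Rik (-1.20), Klf2 (-1.17), S1pr1 (-1.09), Hmgn1 (-1.08), and Cd200 (-0.96) completed the low end. Klf2 was at 64.9, 96.2, and 117 CPM in DP and 209.7, 216, and 159 CPM in DN cells. Of 17 genes that resident cells lose, 10 were lower and none was higher, but 3 were lower against depth-matched DN cells and 0 in thinned cells. At 3 weeks these counts were 11 and 6. This list shares Tcf7, Ccr7, and S1pr1 with the naive and memory genes, so the counts of these lists are not separate.

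The high end at 1 week was led by Cd7, at 181, 226, and 141 CPM in DP and 66.3, 50.8, and 33.6 CPM in DN cells (1.91 ± 0.11, adjusted p = 1.92e-24). It was followed by Cd244a (1.60), Fcer1g (1.56), AA467197 (1.46), Gzma (1.42), Smyd3 (1.28), Lat2 (1.19), Cish (1.17), Entpd1 (1.16), and Fgl2 (1.15). Cish is an inhibitor induced by interleukin-2 family cytokines, and Entpd1 (CD39) degrades extracellular ATP. Gzma was at 477, 400.3, and 532 CPM in DP and 182, 114, and 289.5 CPM in DN cells, and Gzmb at 1469.9, 1287, and 1130.1 and 601, 681, and 668 CPM (1.01 ± 0.06, adjusted p = 1.92e-24). In both genes DP cells were above DN cells in all 3 libraries with no overlap, and in thinned cells Gzmb was seen in 54.0% of DP and 28.5% of DN cells. Of 16 cytotoxic genes 7 were higher and none lower, but 3 were higher without the library as a block and 2 of 14 in thinned cells.

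Among residency genes at 1 week 13 of 30 were higher and none lower, with a median of 0.47. Against depth-matched DN cells 10 were higher and 1 lower, and in thinned cells 1 was higher. Zfp683 was at 22.4, 12.4, and 7.82 CPM in DP and 5.05, 4.72, and 2.26 CPM in DN cells (1.72 ± 0.39, adjusted p = 0.0016, and 0.10 without 7K1), with 2 UMIs in DP cells of 7K3. Cxcr6 was at 268, 341, and 219 CPM in DP and 221, 236, and 148 CPM in DN cells, with a fold change of 0.46 ± 0.08 (adjusted p = 3.95e-06). Its levels overlapped between mice but were higher in DP cells within each, and the call was lost without 7K2 (adjusted p = 0.073). Hpgds (1.73), Chn2 (1.56), Cdh1 (1.42), Rgs1 (0.68), Cd69 (0.63), and Runx3 (0.47) were higher too. Of the integrin partners, Itgb1 was lower (-0.40), and Itgb7, at 64.9, 69.3, and 86.03 CPM in DP and 90.5, 75.4, and 88.7 CPM in DN cells, did not pass (-0.21 ± 0.14, adjusted p = 0.496). Of the TGF-β pathway 5 of 18 genes were higher and 1 lower, with Nedd9 (0.95) and Ldlrad4 (0.89) among the higher, and in thinned cells 0 were higher.

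Of the 19 exhaustion-associated regulators 3 were higher, 3 lower, and 13 did not pass at 1 week, and in thinned cells none passed. Tox was at 132, 169, and 121 CPM in DP and 211, 183, and 151 CPM in DN cells (-0.31 ± 0.10, adjusted p = 0.0405), and the call was lost without 7K1 (0.55), without 7K3 (0.058), and with depth-matched DN cells, where the fold change was 0. Eomes was at 9.86 ± 5.01 and 9.38 ± 2.17 CPM (-0.13 ± 0.48, adjusted p = 0.936). Pdcd1 (0.28) and Il2rb (0.35) were higher, although Pdcd1 turned with at least 2 UMIs of each integrin (-0.17), and Fgl2 was at 163, 141, and 117 CPM in DP and 72.9, 65.4, and 48.7 CPM in DN cells. The Il2rb call was lost without 7K1 (adjusted p = 0.12), and its direction turned in thinned cells (-0.50), in a fit with 45 DP cells. With the classes of the full counts, thinned Il2rb was seen in 24.0% of DP and 22.7% of DN cells. Cells with both Fgl2 and Il2rb made up 4.29 ± 2.26% of thinned DP and 1.58 ± 0.365% of thinned DN cells. Of 12 regulatory genes tested at 1 week 6 were higher and 0 lower. Against depth-matched DN cells 3 were higher, and in thinned cells 0 of 10.

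Cell division and markers of other cells moved with DP cells at 1 week. Of 26 proliferation genes 12 were higher, with Mki67 at 443, 257, and 489 CPM in DP and 255, 152, and 399.9 CPM in DN cells (0.64), and 0.16 (adjusted p = 0.44) against depth-matched DN cells. Of the 26 genes 0 were higher and 1 was lower against those cells, and 0 were higher without the library as a block. Without dividing cells 188 genes were higher and 110 lower, Gzmb kept a fold change of 1.31, and Maf turned from 0.75 to -0.22. The summed level of 8 gamma-delta T cell genes was 138 to 168 CPM in DP and 40.2 to 49.6 CPM in DN cells. Tcrg-C2 (1.76) and Tcrg-C1 (1.63) were higher, with the caveat that these constant genes are much alike, and the defining gene Trdc was at 10.2 ± 14.99 and 1.63 ± 0.685 CPM (2.27 ± 0.76, adjusted p = 0.0588). Foxp3, the factor of regulatory T cells, was at 38.03, 15.5, and 43.01 CPM in DP and 12.3, 7.80, and 9.99 CPM in DN cells (1.51 ± 0.30, adjusted p = 1.61e-04). Cd4 was at 17.7 ± 2.03 and 10.9 ± 6.03 CPM (0.82 ± 0.34, adjusted p = 0.156). Foxp3 was seen in 7.69% of DP and 2.41% of DN cells as deposited, and in 1.93 ± 1.06% and 0.717 ± 0.226% after thinning. The 8 dendritic cell genes summed to 98.3 to 125 CPM in DP and 64.96 to 83.1 CPM in DN cells, higher in all 3 libraries, and of the 2 tested Irf8 was higher (0.61 ± 0.13, adjusted p = 9.43e-04, and 0.16 without 7K2). Of the lists of other cells, the genes at 0 in all DP cells of 1 week were Sox13, Cd163l1, and Il23r of the gamma-delta list, Xcr1, Clec9a, Flt3, and Wdfy4 of the dendritic cell list, Ms4a1 of B cells, S100a8, S100a9, and Fcgr3 of myeloid cells, 12 of 19 kidney epithelial genes, 9 of 10 stromal and endothelial genes, and 4 of 5 red blood cell genes. The part of other cells in the 1-week results was not tested, beyond the count without cells holding 1 of 7 markers of other cells, 370 higher and 175 lower.

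At 3 weeks 2 lists of other cell types held a gene higher in DP cells. The gamma-delta list summed to 176 to 232 CPM in DP and 149 to 181 CPM in DN cells, with 1 of 4 tested genes, Tcrg-C2, higher (0.38). The 15 myeloid genes summed to 349 to 741 CPM in DP and 392 to 809 CPM in DN cells, lower in DP cells of every library, with 2 of 11 genes lower. The CD4 list (Cd4, Foxp3, and Cd40lg) summed to 6.03 to 8.95 and 4.25 to 8.67 CPM, and no gene of it passed. Of 7 B cell genes tested, Ighm was the 1 that was higher. The 19 kidney epithelial genes summed to 30.7 to 43.7 and 35.2 to 56.2 CPM, and none of the 5 tested passed. Their part in the results at 3 weeks was not tested, and without cells holding 1 of the 7 markers 435 genes were higher and 458 lower.

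The 2 weeks were then compared, first in the DP effect itself and then in DP cells alone. Of the 494 genes higher at 3 weeks, 140 were also called higher at 1 week (28.3% of the 3-week list and 31.7% of the 1-week list) and 1 was called lower. Of the 504 lower genes, 56 were also called lower at 1 week (11.1% and 29.3%) and 27 were called higher. In an interaction test, the difference of the log2 fold changes, 3 weeks minus 1 week, was positive for 69 of 10165 genes (0.679%) and negative for 265 (2.61%). Its sign gives the direction of the shift and not whether the DP effect was stronger or weaker. With TMM scaling the counts were 143 and 146. They fell to 36 and 189 without 7K1, to 27 and 85 without 7K2, and to 1 and 3 without the library as a block.

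The effect of Maf, a factor that drives interleukin-10, differed in direction. It was at 67.1, 46.6, and 62.6 CPM in DP and 48.7, 25.4, and 30.7 CPM in DN cells at 1 week, higher in each library. At 3 weeks it was at 17.2, 15.05, 12.1, 16.1, and 8.31 and 64.3, 40.8, 21.99, 17.95, and 21.8 CPM, lower in each library, and the effects differed by -2.06 ± 0.25 (adjusted p = 3.25e-09). Without dividing cells the difference was -1.01 and no longer passed (adjusted p = 0.52). The difference was also negative for Il10 (-2.81), Pdcd1 (-0.66), Il2rb (-0.60), and Nr4a2 (-0.79), whose fold changes were above 0 at 1 week (not passing for Nr4a2) and below 0 at 3 weeks. In thinned cells that of Il2rb turned (0.14). For Tox the difference did not pass (-0.32 ± 0.11, adjusted p = 0.0926).

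At the other end were Dapl1 (2.72), Ccr7 (2.57), Tcf7 (1.93), Gzma, and 2310001H17Rik (1.05). Of 13 naive and memory genes the difference was positive for 6 and negative for 1 among those that passed. It was positive for 2 of 12 with depth-matched cells and 0 of 11 in thinned cells. Tcf7 at 3 weeks was at 13.6, 14.6, 12.4, 9.40, and 9.14 CPM in DP and 19.1, 11.1, 11.5, 16.7, and 11.6 CPM in DN cells, where both classes lay below the 92.8 to 129 CPM of DN cells at 1 week. With depth-matched cells the difference of Dapl1 was 0.88 (adjusted p = 0.84). The effect of Gzma was larger at 3 weeks by 1.56 ± 0.13 (adjusted p = 3.90e-16), but this did not hold in thinned cells, where it turned to -0.94 (adjusted p = 0.0061). That fit held 45 DP cells at 1 week. With the classes of the full counts, thinned Gzma was seen in 10.5% of DP and 6.66% of DN cells at 1 week. At 3 weeks these shares were 6.14% and 2.36%. As the settings differ, no direction is given for Gzma. Of the lists, 16 of 30 residency genes and 9 of 19 exhaustion-associated regulators had a negative difference, and 1 of each a positive one. The negative ones numbered 0 and 0 in thinned cells and 1 and 1 without the library as a block. Of 12 regulatory genes 7 had a negative difference and 0 a positive one, against 0 of 10 negative in thinned cells and 1 without the block.

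**Figure D3:**
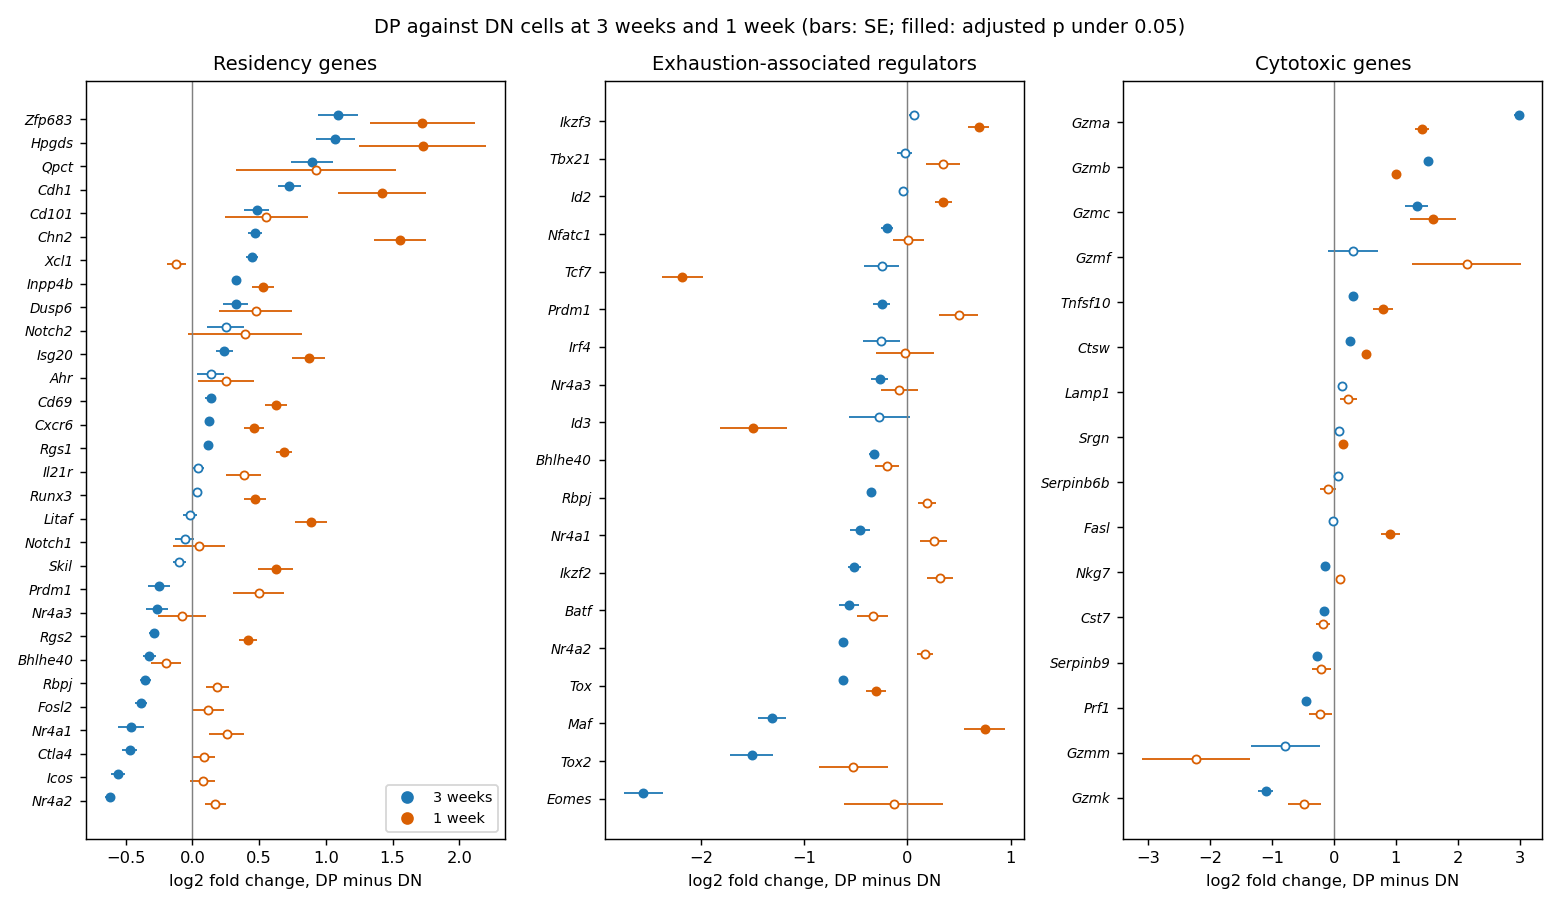
Log2 fold change (DP minus DN) with its SE for the tested genes of 3 lists, at 3 weeks (blue) and 1 week (orange). Filled points pass an adjusted p of 0.05. Residency genes lie on both sides of 0 at 3 weeks and mostly above it at 1 week, the exhaustion-associated regulators other than Ikzf3 lie at or below 0 at 3 weeks, and Gzma has the highest point, 2.99.

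DP cells of 3 weeks were also set against DP cells of 1 week, with no block as the libraries differ. Of 9279 genes tested, 2910 were higher at 3 weeks (31.4%) and 1434 lower (15.5%), against 1728 and 2033 with TMM scaling and 1831 and 1181 without 7K2. All genes together had a median of 0.32, from 0.07 in the tenth with the shortest introns to 0.73 in that with the longest. A fold change is therefore read against 0.32, and against up to 0.73 for genes with long introns. With this shift by intron length removed, 1603 genes were higher and 1841 lower. The weeks share no library, so time and library set cannot be told apart here. Proliferation genes were lower, 26 of 26, with a median of -4.52. Mki67 was at 19.4, 17.9, 22.99, 17.9, and 27.8 CPM at 3 weeks and 443, 257, and 489 CPM at 1 week (-4.14 ± 0.18, adjusted p = 7.96e-16). The lowest were Birc5 (-8.11), Ccnb2 (-7.39), Pclaf (-7.32), Hmmr (-7.22), and Ube2c (-7.15), which all act in the cell cycle. S1pr1 was lower too, at 7.77 ± 2.96 CPM at 3 weeks and 31.7 ± 11.4 CPM at 1 week (-1.98). DN cells went the same way. Their Mki67 was at 20.7 ± 1.86 CPM at 3 weeks and 269 ± 125 CPM at 1 week. Their S1pr1 was at 11.7 ± 2.22 and 62.4 ± 12.7 CPM, so these drops were not particular to the DP class.

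At the high end were Glp1r, the receptor for the gut hormone GLP-1, then AC149090.1 (2.89), Camk2n1 (2.85), Zbtb20 (2.67), and Crim1 (2.59). Glp1r was at 50.2, 47.02, 71.2, 71.2, and 53.996 CPM in DP cells at 3 weeks and 0, 3.10, and 0 CPM at 1 week, where 1 library held all 3 UMIs. The ratio of its levels was 32.4 (95% counting interval 11.1 to 158), and its fitted log2 value of 4.98 depends on the prior count. DN cells of 3 weeks held 36.7, 43.4, 48.3, 48.4, and 55.6 CPM, so the gene was not particular to the DP class. Bcl2, which protects from apoptosis, was at 949, 802, 839, 938, and 889 CPM at 3 weeks and 199, 164, and 156 CPM at 1 week (2.35 ± 0.12, adjusted p = 2.07e-14). Cxcr6 was higher at 3 weeks, from 276 ± 61.6 to 695 ± 33.5 CPM (1.27), and so were Runx3 (1.55), Fgl2 (1.68), Il7r (1.76), and Prf1 (1.42). In DN cells Cxcr6 went from 202 to 637 CPM, Runx3 from 164 to 642 CPM, and Fgl2 from 62.3 to 317 CPM. The summed residency genes went from 3600 to 6934 CPM in DN and from 4540 to 6812 CPM in DP cells. These rises were not particular to the DP class. Of 30 residency genes 18 were higher and 4 lower, with a median of 0.72, and of 18 genes of the TGF-β pathway 9 were higher and none lower (6 higher with TMM scaling). In thinned cells 2 of 24 and 0 of 10 were higher. Gzmb was at 1397 ± 249 CPM at 3 weeks and 1296 ± 170.1 CPM at 1 week and did not pass (0.10 ± 0.12, adjusted p = 0.501). Pdcd1 (0.48) was close to the median of all genes and turned in thinned cells (-0.11).

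The cells just outside the rule were compared to see which of the 2 integrins a gene goes with. At 3 weeks, cells with Itgae only were compared with cells with Itga1 only in the same libraries. Of 9803 genes tested, 70 were higher in Itgae-only cells (0.714%) and 65 lower (0.663%), and the lower count was 40 to 43 without TK3, TK4, or TK5. Without the library as a block the counts were 3 and 6. Gzma was at 127, 159, 843, 398, and 417 CPM in Itgae-only and 32.2, 81.1, 262, 116, and 199 CPM in Itga1-only cells, higher in each library although the ranges overlapped (1.48 ± 0.09, adjusted p = 8.55e-26). Gzmb was at 793, 1123, 1303, 991, and 1279 and 498, 738, 811, 732, and 819 CPM (0.61 ± 0.03, adjusted p = 4.68e-28). Both granzymes, like Cd7 (0.60), were ordered in the same way in every library, lowest with neither integrin, then with Itga1 only, then with Itgae only, and highest with both.

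Itgb7 went with Itgae. It was at 52.1, 54.4, 66.1, 40.7, and 56.4 CPM in Itgae-only and 32.5, 30.3, 31.95, 36.3, and 31.3 CPM in Itga1-only cells, with no overlap (0.74 ± 0.11, adjusted p = 3.98e-07), so that Itga1-only cells lay near the DN level. Itgb1 was lower in Itgae-only cells (-0.16). Fcer1g went with Itga1, at 163, 285, 493, 411, and 416 CPM in Itgae-only and 418, 489, 729, 715, and 598 CPM in Itga1-only cells (-0.75 ± 0.05, adjusted p = 9.82e-21), lower with Itgae in all 5 libraries. Of 13 NK receptor and adaptor genes tested, 8 were lower and 1, Cd7, was higher in Itgae-only cells, against 4 of 10 lower in thinned cells and 2 of 13 without the library as a block. Klrk1 was at 54.5, 44.98, 35.4, 25.97, and 44.8 CPM in Itgae-only and 109, 64.5, 79.6, 67.9, and 81.5 CPM in Itga1-only cells without overlap (-0.96 ± 0.10, adjusted p = 3.55e-13). Klre1 (-1.54), Klri2 (-1.21), and Klrd1 (-0.52) were lower too. Ly6c2 (-0.89), Gm36723 (-0.95), and Gm156 (-0.86) were lower with Itgae, and Isg15 (0.61), an interferon-induced gene, was higher.

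Cxcr6 was at 769, 631, 689, 645, and 636 CPM in Itgae-only and 778, 642, 665, 679, and 627 CPM in Itga1-only cells (-0.01 ± 0.03, adjusted p = 0.969), and Zfp683 (-0.25 ± 0.17) and Eomes (-0.48 ± 0.33) did not pass either. Eomes was at 6.21 ± 3.43 CPM in Itgae-only and 8.56 ± 2.91 CPM in Itga1-only cells, both below the 34.3 ± 34.7 CPM of DN cells. Tox (-0.24), Prf1 (-0.37), and Itga4 (-0.30) were lower and Il7r (0.42), Cd160 (0.53), Gzmc (1.08), and Pmepa1 (0.35) higher in Itgae-only cells. Ldlrad4 was higher too (0.51), and turned in thinned cells (-0.10).

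**Figure D4:**
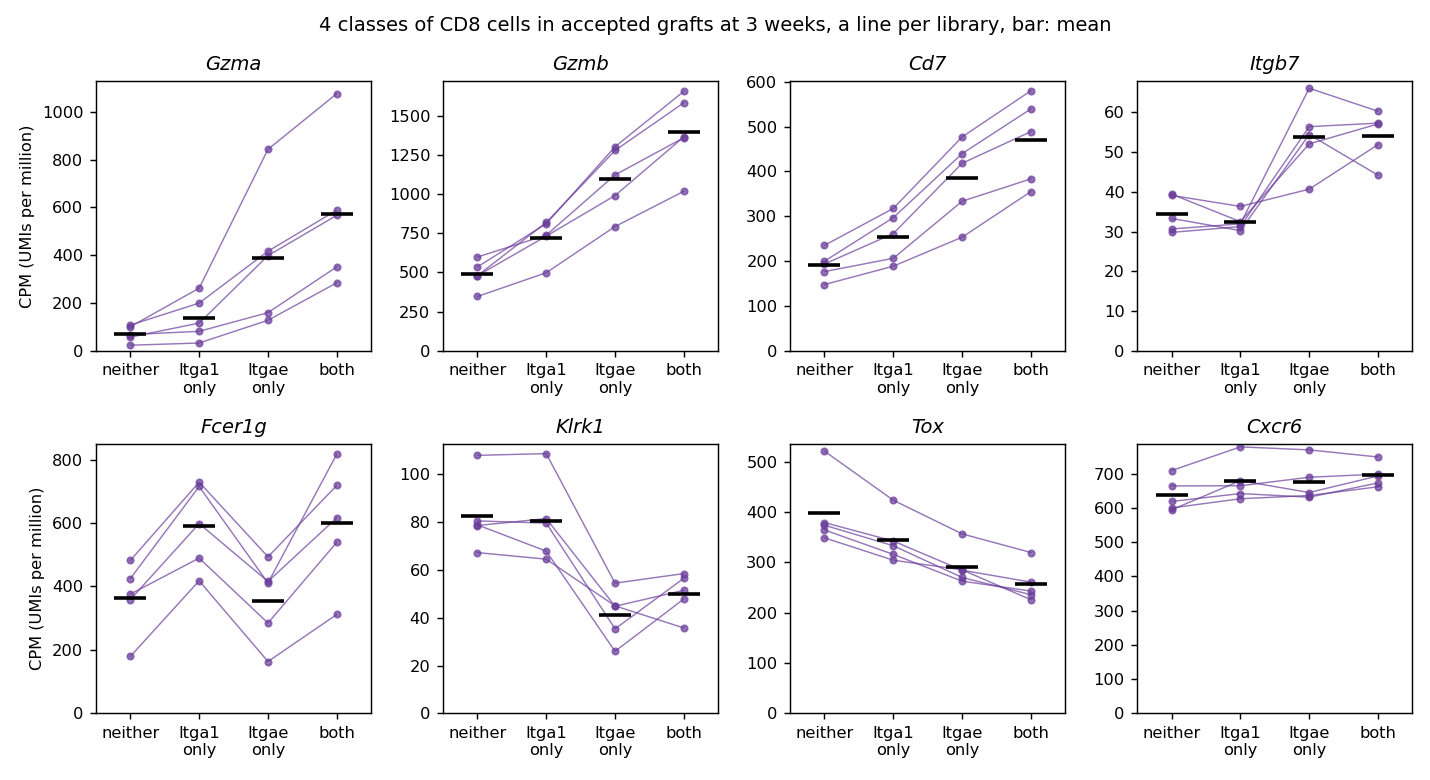
Level in CPM of 8 genes in the 4 classes of CD8 cells at 3 weeks (neither integrin, Itga1 only, Itgae only, both), each library joined by a line and a bar at the mean. Gzma, Gzmb, and Cd7 step up from neither to both, Tox steps down, Itgb7 is high in both classes with Itgae, Fcer1g in both classes with Itga1, and Cxcr6 lies near 640 to 700 CPM in all 4.

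In the labelled spleen of 24 weeks DP cells were higher in Gzma, Gzmb, and Cd7 and lower in Eomes, Maf, and Tox than DN cells, the same directions as in grafts at 3 weeks. This comparison was added after the data were seen. There were 399, 198, and 241 DP cells in 6MS1 to 6MS3. Of 10029 genes tested, 201 were higher (2%) and 173 lower (1.72%), and with TMM scaling 149 and 261. Leaving out 6MS1, 6MS2, or 6MS3 gave 127 and 96, 127 and 109, or 111 and 97. Of the 201 higher genes 132 were called higher in grafts at 3 weeks as well (65.7% of this list and 26.7% of the 3-week list). Of the 173 lower genes 120 were called lower there (69.4% and 23.8%), and none was called the other way. The 2 comparisons share no library, but grafts were also in the fit of the labelled spleen and so entered its estimate of the spread.

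Gzma was at 726, 1131, and 609 CPM in DP and 370.5, 158, and 171 CPM in DN cells of 6MS1 to 6MS3 (1.78 ± 0.13, adjusted p = 4.19e-20), and Gzmb at 769, 894, and 858 and 355, 348, and 363 CPM (1.23 ± 0.07, adjusted p = 1.25e-26). DP cells were higher in all 3 libraries with no overlap. Ptpn5, a tyrosine phosphatase, had the highest fold change, 2.07 ± 0.22, at 54.2, 61.1, and 45.8 CPM in DP and 14.6, 13.04, and 10.3 CPM in DN cells. Tmem273 (1.39), Kctd12 (1.09, and -0.56 in thinned cells), Cd7 (1.01), Tyrobp (1.44), Cd244a (0.85), and Fgl2 (0.60) were higher too. The low end was made of Ier3 (-2.65), Eomes, Maf, Gzmk (-1.72), and Cxcl10 (-1.48). Eomes was at 9.39, 13.6, and 14.1 CPM in DP and 65.9, 83.4, and 56.7 CPM in DN cells (-2.50 ± 0.27, adjusted p = 9.35e-12), and Maf at 29.6, 35.6, and 25.8 and 95.05, 106, and 137 CPM (-1.89 ± 0.17). Here no single DN library stood apart.

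By group, 8 of 30 residency genes were higher and 4 lower, 4 of 17 genes that resident cells lose were lower, and 7 of 19 exhaustion-associated regulators were lower with none higher. In thinned cells 0, 2, and 0 of these genes passed. Tox (-0.62), Tox2 (-2.31), Batf (-1.23), Havcr2 (-1.30), Lag3 (-0.67), and Ifng (-0.51) were lower, and Hpgds (1.18), Qpct (0.83), and Chn2 (0.78) higher. Cxcr6 was at 637, 577, and 622 CPM in DP and 643, 493, and 592 CPM in DN cells and did not pass (0.08 ± 0.06, adjusted p = 0.57). Zfp683 (0.60 ± 0.35, adjusted p = 0.458) and Itgb7 (0.28 ± 0.13, adjusted p = 0.277) did not pass either.

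**Figure D5:**
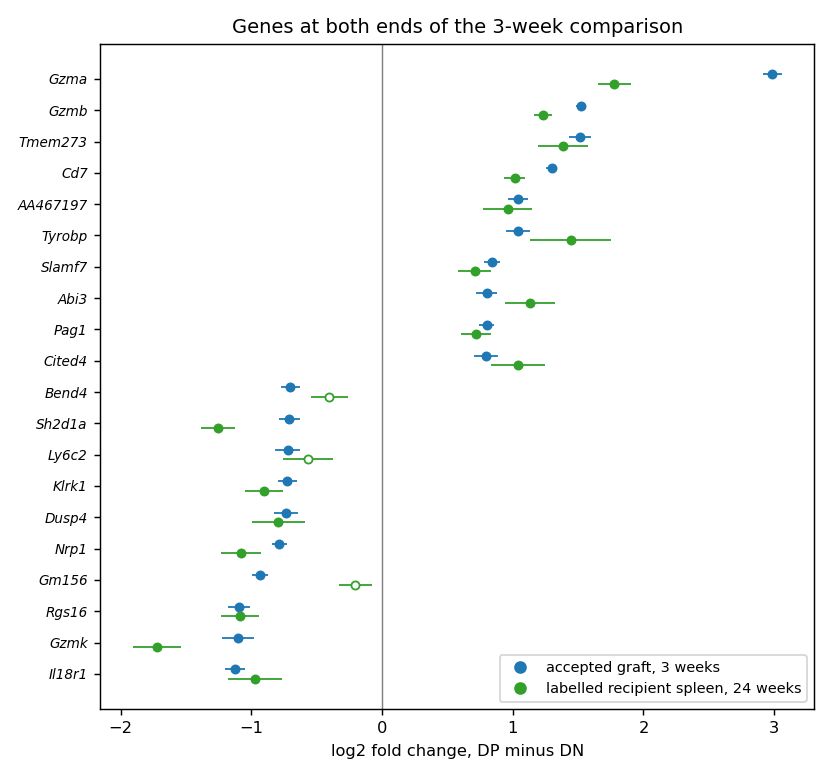
Log2 fold change (DP minus DN) with its SE for the 10 highest and 10 lowest genes of the 3-week comparison, in accepted grafts at 3 weeks (blue) and in the libraries labelled recipient spleen at 24 weeks (green). Filled points pass an adjusted p of 0.05. The 20 genes lie on the same side of 0 in both, and Bend4, Ly6c2, and Gm156 do not pass in the labelled spleen.

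Rejecting grafts held too few DP cells for more than a sketch, 39 in R7K2 and 9 in R7K3. Of 10857 genes tested, 28 were higher (0.258%) and 16 lower (0.147%), and with TMM scaling 12 and 198. Without R7K2 only 1 library is left in this group, so no count is given. Without the library as a block edgeR called 0 and 0, with 682 of the 10857 genes at an unadjusted p under 0.05. Of 4 red blood cell genes tested 3 were higher, with summed levels of 0 to 5507 CPM in DP and 3.11 to 6.88 CPM in DN cells, and their part in these counts was not tested. Cd7 was at 236 and 142 CPM in DP and 65.4 and 33.4 CPM in DN cells of R7K2 and R7K3 (1.90 ± 0.37, adjusted p = 2.58e-04), and Cdh1 at 135 and 28.5 and 22.9 and 20.2 CPM (2.16 ± 0.55, adjusted p = 0.0275). Cd7 was higher in DP cells of both mice, while the Cdh1 level in DP cells of R7K3 is that of 1 UMI and bears no comparison. Gzmb was at 1189 and 1852 CPM in DP and 990.1 and 1655 CPM in DN cells and did not pass (0.22 ± 0.12, adjusted p = 0.677), and neither did Gzma (0.44 ± 0.43), Cxcr6 (0.12 ± 0.24), or Pdcd1 (-0.13 ± 0.19). On simulated data of this size the test recovered 2.27% of genes changed by 1 log2 unit. Only genes of lower mean level were changed there, and in such genes a difference of that size would rarely be seen. Genes at the level of Gzmb, Cxcr6, or Pdcd1 were not among those changed, so this share does not cover them. Whether the DP effect differs between accepted and rejecting grafts was not tested.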

How the data were processed

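Raw UMI counts per gene and cell, as the authors deposited them for each group's CD8+ T cells, were used. The authors made them with Cell Ranger against mm10 (versions are not given in the sources used here) from 10x Chromium 3′ libraries, filtered cells by UMIs, genes, and mitochondrial share (limits not given), and chose CD8+ T cells from Seurat clusters. Cells were assigned to libraries by their barcode tag, and each tag was taken as 1 mouse. How doublets were treated is not given in the sources used here, and no doublet caller was run. A cell barcode that 2 libraries shared was kept. Matrices of all CD45+ cells of rejecting kidney and naive spleen gave the background of other cell types, and the barcode and gene name files of other CD45+ matrices were not used.

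Members and gene lists were chosen with earlier results of these data known. Counts were summed per library and class and fitted with edgeR 4.0.16 (glmQLFit and glmQLFTest, R 4.3.3) on plain totals after filterByExpr. The library was the block, since DP and DN cells of 1 library share a mouse. P-values were Benjamini-Hochberg adjusted over all genes, with a threshold of 0.05. SEs were derived from edgeR's test, as the absolute log2 fold change over the square root of its F statistic. Itgae, Itga1, Cd8a, and Cd8b1 were given no test. Total UMIs were 255730 to 966696 (1 week) and 2126669 to 3607022 (3 weeks) per library in DP cells, and 2612361 to 19009879 in DN cells of both times. Alternatives were TMM factors, DESeq2 1.42.0, no filter, no block, DN cells matched on UMIs (within 0.05 on the log scale), thinning to 1000 or 500 UMIs (seed 7), at least 2 UMIs of each integrin, an intron-length shift over 10 groups of genes, leaving out dividing cells (at least 2 UMIs over 8 genes) or cells with 1 of 7 markers of other cells, and leaving out each library. For the labelled spleen, and for the intron shift of DP cells between weeks, they were chosen after seeing the data.

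The text names the 10 genes with the highest and the 10 with the lowest log2 fold change (5 and 5 outside the DP and DN comparisons of accepted grafts) among those past the threshold, with a mean of at least 50 CPM in either class and the same direction in every library. It leaves out mitochondrial, ribosomal, immunoglobulin, and T cell receptor genes and the 4 genes of the rule. Up to 4 genes per list (26 lists) and 16 genes chosen by name were added. Some genes are in more than 1 list and are counted in each. Named outside this rule, after their values were seen, were Fcer1g, Prf1, Nr4a2, Ctla4, Icos, Lag3, Pmepa1, Itga4, Klre1, Klrd1, Tox, Eomes, Cd7, Ifng, Irf8, and Gzma in single comparisons, and the genes listed only as members of a list. Results for some genes are not reported here, and list counts leave them out. On simulated counts for the 3-week comparison, with 9840 genes run, edgeR recovered 86.9% of genes changed by 1 log2 unit and 98.9% of those changed by 2, with 9 false calls among 190. At 1 week (9835 genes) these shares were 53.8% and 84.1%, and in rejecting grafts (9983 genes) 2.27% and 20.7%. Counts were drawn around 1 mean per gene with the spread that edgeR had estimated, without library or week effects. Only genes of lower mean level were changed. The false calls therefore cannot show whether that spread understates how far DP and DN differences vary between mice. Intervals of shares are Clopper-Pearson at 95%, and the limit at 0 is 3 counts. Python 3.11.15 with numpy 2.4.6, pandas 2.3.3, scipy 1.17.1, and matplotlib 3.10.9 was used. Gene positions are those of the GENCODE annotation of GRCm38.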

Additional observations from a re-analysis of the deposited data

Results flagged for a closer look

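In accepted grafts at 3 weeks, library TK1 stood apart from the other 4 by Dixon's limit of 0.71 in 4 of 33 groups of libraries tested, where chance alone gives about 1 in 20. Its DP cells had a median of 3160 UMIs, and its DN cells held 94.17 CPM of Eomes, 126.3 CPM of Gzmk, and 521 CPM of Tox.

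The DP effect differed between 3 weeks and 1 week in edgeR's interaction test for these genes at the ends of the ranking. The difference of the log2 fold change was 2.72 for Dapl1, 2.57 for Ccr7, 1.93 for Tcf7, 1.56 for Gzma, and 1.05 for 2310001H17Rik. With depth-matched cells that of Dapl1 was 0.88 (adjusted p = 0.84). In thinned cells, with 45 DP cells at 1 week, that of Gzma turned to -0.94 (adjusted p = 0.0061). On full counts the difference was -2.06 for Maf, -1.82 for the histone gene Hist1h2ab, -1.39 for the kinase Plk3, and -1.24 for Osgin1. The call of Hist1h2ab was lost with TMM scaling, with depth-matched cells, without the block, and without 7K1 or 7K2.

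Outside the comparisons of accepted grafts, the libraries labelled recipient spleen at 24 weeks held DP cells at a mean share of 19.2%, against 0 of 1910 cells in the libraries labelled graft at 24 weeks.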

How the results depend on the processing

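Thinning lowered the share of DP cells at both times, and 3 libraries at 1 week and 2 in rejecting grafts limited the tests. Counts are of genes higher and lower.

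DESeq2 called 231 and 259 genes at 3 weeks, 173 higher at 1 week, 128 and 95 for the difference of weeks, 1471 higher in DP cells of 3 against 1 week, 28 lower with Itgae only, 15 and 44 in rejecting grafts, and 103 higher in the labelled spleen. TMM gave 252 and 377 at 1 week, 143 and 146 for the difference, 1728 higher in DP cells between weeks, 12 and 198 in rejecting grafts, and 261 lower in the labelled spleen. Without the replicate block, the counts were 114 and 127 at 3 weeks, 96 and 30 at 1 week, and 1 and 3 for the difference. They were 3 and 6 for Itgae only and 40 and 28 in the labelled spleen. In rejecting grafts they were 0 and 0, with 682 of 10857 genes at an unadjusted p under 0.05.

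With thinning to 1000 UMIs, the counts were 113 and 147 at 3 weeks, 9 and 2 at 1 week, 0 and 4 for the difference (345 at an unadjusted p under 0.05 in edgeR, 128 and 95 by DESeq2 on full counts), 62 and 102 for DP cells between weeks, 16 and 15 for Itgae only, 0 and 0 in rejecting grafts (203 at an unadjusted p under 0.05), and 5 and 10 in the labelled spleen. Thinning also turned the log2 values of Il2rb (-0.50 at 1 week, 0.14 for the difference), Gzma (-0.94) and Mki67 (0.034) for the difference, Pdcd1 (-0.11) and Cd69 (-0.13) between weeks, Ldlrad4 (-0.10) for Itgae only, and Kctd12 (-0.56) in the labelled spleen. The shares were 7.51% and 0.497%, at 500 UMIs 2.51% and 0.154%, and the odds ratio at 3 weeks 1.46.

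With at least 2 UMIs of each integrin the shares were 6.04% and 0.429%, and the counts 126 and 81 at 1 week, 25 and 64 for the difference, and 753 and 535 between weeks, while Pdcd1 at 1 week (-0.17) and Cd69 between weeks (-0.17) turned. Depth matching left 227 higher at 1 week and 13 in rejecting grafts. The intron shift gave 180 and 514 at 1 week, 267 and 112 for the difference, and 1603 and 1841 between weeks. Without dividing cells there were 188 and 110 at 1 week, 40 and 118 for the difference, and 1547 and 583 between weeks, and Maf (-0.22) and Kif11 (-0.18) turned at 1 week. The cause of these shifts was not tested.

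Leaving out 1 library gave 105 to 481 higher and 66 to 202 lower genes at 1 week, and 27 to 98 and 85 to 311 for the difference. It gave 1831 to 2911 higher between weeks and 40 to 46 lower for Itgae only. In rejecting grafts it gave 22 to 29 and 11 to 16, not counting the fit that leaves only R7K3 there. In the labelled spleen it gave 111 to 224 and 96 to 188. The 1-week share was 1.85% to 4.22%. Of 76 genes named at 3 weeks, TMM left every call in place, DESeq2 66, depth matching 72, the fit without a block 54, and thinning 52 of 69. Of those named at 1 week depth matching left 44 of 60, the fit without a block 39 of 60, and thinning 8 of 32, and for the difference of weeks these were 18 of 26, 5 of 26, and 1 of 15. Repeats of a named gene with under 3 UMIs over all DP cells of a group (84) were left out.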
